A study of Mus musculus with 11 samples.

Results

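Open chromatin of embryonic esophagus cells was set against that of wild-type esophagus cells by ATAC-seq, an assay in which a transposase inserts adapters into accessible DNA. Of the 11 libraries of the series, 5 entered: 2 labelled Embryo and 3 labelled WT. Embryo cells came from mouse esophagus at embryonic day 13, carried the genotype Krt8YFP and were sorted on YFP, and no strain is given for them. WT cells came from CD1 mice of wild type genotype and were sorted for low EpCAM, an epithelial surface protein, and no age is given for them. No treatment is named for either group. Stage, genotype and sorting gate therefore changed together and cannot be told apart, and whether strain also differed is not known. The labels do not say whether libraries came from separate animals, so the spread measured here may be technical, and whether 1 embryo or a pool gave each Embryo library is not stated. In each library the 14000 intervals with the highest −log10 p on chromosomes 1 to 19 and X were kept, and all were merged at 1 bp or more of overlap into 27825 regions with a median width of 949 bp. A region is called open in a library that has an interval there among its 14000. The comparison turns on the 3148 regions open in 2 of 2 Embryo and 0 of 3 WT libraries (11.3% of all regions), here called Embryo-only, and the 4058 open in 0 of 2 Embryo and 3 of 3 WT (14.6%), here called WT-only.

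The esophagus arises from the foregut endoderm, where Foxa2, Sox2 and Shh pattern the tube and a simple epithelium with Krt8 and Krt18 lines it. A stratified squamous epithelium replaces that lining, with basal cells marked by Trp63, Krt5 and Krt14 and outer cells held together by desmosomes and cross-linked by transglutaminases. Promoters, often rich in CG dinucleotides, tend to be open in many cell types, whereas distal elements are open more selectively.

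The lists of the groups were unequal before any comparison. The full lists held 69026, 78490 and 77072 intervals in WT 1 to 3, and 24902 and 14255 in Embryo 1 and 2. At rank 14000 the authors' −log10 p was 23.8, 43.3 and 30.6 in WT but 8.30 and 4.05 in Embryo, so equal length does not mean equal evidence, and the last Embryo intervals were weak. Median interval width among the 14000 was 998, 1019 and 1048 bp in WT against 662 and 481 bp in Embryo. Read numbers are not known from any source used here, and the part of depth in the results was not tested. The Jaccard index (shared over all regions of a pair) was 0.584 to 0.647 within WT, 0.583 within Embryo and 0.265 to 0.334 over the 6 pairs between groups.

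Among the strongest 14000 intervals, promoter windows were covered by 1190 Embryo-only regions (37.8%) and by 137 WT-only regions (3.38%). The order of these counts rests on the list length: with full lists it was 31 of 899 (3.45%) against 1267 of 40717 (3.11%), and with absence judged in full lists 19 of 372 (5.11%) against 68 of 3679 (1.85%). Of the windows, 6 are printed because their regions were among the strongest of each set that cover a RefSeq promoter window (250 bases before to 50 after the start; GRCm38.p6). Sh3bp4 (chr1:89070165-89070464, plus strand), an adaptor of receptor endocytosis, B3galt6 (chr4:155992629-155992928, minus strand), a galactosyltransferase of proteoglycan synthesis, and Tnrc6c (chr11:117654039-117654338, plus strand), a protein of microRNA silencing, overlapped Embryo-only regions, which cover both other windows whole but only 129 of the 300 bases at Tnrc6c. Mpp4 (chr1:59163340-59163639, minus strand), a scaffold protein, Lypd3 (chr7:24636320-24636619, plus strand), a surface protein of squamous epithelium, and Gm14137 (chr2:119174259-119174558, plus strand), a predicted gene, lay in WT-only regions. Capitals mark every CG dinucleotide and the AP-1 letters TGANTCA.
Sh3bp4: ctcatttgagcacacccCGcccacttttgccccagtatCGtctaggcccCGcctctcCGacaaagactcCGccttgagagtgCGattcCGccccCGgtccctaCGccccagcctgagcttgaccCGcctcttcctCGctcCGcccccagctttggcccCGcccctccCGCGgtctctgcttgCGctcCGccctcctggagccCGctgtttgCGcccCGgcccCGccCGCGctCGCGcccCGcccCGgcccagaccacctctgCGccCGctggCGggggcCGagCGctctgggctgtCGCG
B3galt6: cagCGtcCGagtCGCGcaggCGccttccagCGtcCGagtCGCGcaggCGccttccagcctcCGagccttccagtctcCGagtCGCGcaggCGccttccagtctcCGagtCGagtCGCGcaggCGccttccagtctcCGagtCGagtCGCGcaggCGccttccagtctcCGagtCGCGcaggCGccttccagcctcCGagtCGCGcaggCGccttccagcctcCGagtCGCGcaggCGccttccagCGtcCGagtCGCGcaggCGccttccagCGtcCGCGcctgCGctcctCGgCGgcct
Tnrc6c: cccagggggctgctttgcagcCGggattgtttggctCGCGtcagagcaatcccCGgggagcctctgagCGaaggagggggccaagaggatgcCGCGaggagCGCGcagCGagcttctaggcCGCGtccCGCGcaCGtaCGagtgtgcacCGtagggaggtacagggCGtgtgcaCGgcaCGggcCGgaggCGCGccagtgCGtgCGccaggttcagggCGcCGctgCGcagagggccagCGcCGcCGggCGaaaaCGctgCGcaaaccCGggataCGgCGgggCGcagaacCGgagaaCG
Mpp4: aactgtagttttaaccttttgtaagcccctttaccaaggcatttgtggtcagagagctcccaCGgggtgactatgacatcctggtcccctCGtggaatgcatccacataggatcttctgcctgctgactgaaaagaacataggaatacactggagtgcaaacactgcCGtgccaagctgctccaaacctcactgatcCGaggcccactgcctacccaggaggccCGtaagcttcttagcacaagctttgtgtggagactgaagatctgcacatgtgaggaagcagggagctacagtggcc
Lypd3: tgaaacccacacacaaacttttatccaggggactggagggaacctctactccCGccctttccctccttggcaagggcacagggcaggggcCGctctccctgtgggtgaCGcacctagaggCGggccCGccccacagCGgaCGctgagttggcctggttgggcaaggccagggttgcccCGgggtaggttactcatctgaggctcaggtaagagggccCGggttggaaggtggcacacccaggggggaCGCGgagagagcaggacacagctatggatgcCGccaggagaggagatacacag
Gm14137: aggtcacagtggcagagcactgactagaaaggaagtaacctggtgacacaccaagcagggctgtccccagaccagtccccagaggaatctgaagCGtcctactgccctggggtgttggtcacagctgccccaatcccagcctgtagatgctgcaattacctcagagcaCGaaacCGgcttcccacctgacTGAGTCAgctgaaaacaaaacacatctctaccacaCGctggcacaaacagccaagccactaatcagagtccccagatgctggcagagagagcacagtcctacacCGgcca

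The Embryo-only windows printed above held 34, 48 and 40 CG dinucleotides, and the WT-only ones 5, 12 and 5. A 12-base word recurred 9 times in the B3galt6 window, so its count of CG reflects a repeat. The same contrast ran through all windows. The median was 25 CG in the 1428 windows covered by Embryo-only regions (quartiles 18 and 35), 9 in the 157 covered by WT-only regions (5 and 17), 23 in the 3979 covered by regions open in all 5 libraries, and 13 over all 21020 windows. The GC box letters GGGCGG, which contain 1 CG, were present on either strand in 75.9% of Embryo-only and 42.0% of WT-only windows, against 46.7% of all. The AP-1 letters TGANTCA, bound by Fos and Jun dimers, showed the reverse order: 26.8% of WT-only windows (42 windows of 37 genes), 2.94% of Embryo-only windows and 7.04% of all. The TATA box letters TATAAA were in 12.7% of WT-only, 5.74% of Embryo-only and 12.7% of all windows, and the NRF1 letters GCGCATG, which also contain CG, in 1.91%, 8.12% and 4.84%. Letters of 4 factor families of foregut development were also searched. SOX letters ACAATG were in 6.37% of Embryo-only, 7.64% of WT-only and 10.5% of all windows, FOX letters TGTTTAC in 2.17%, 5.10% and 3.03%, GATA letters AGATAA in 5.25%, 11.5% and 9.69%, and GLI letters ACCACCC in 5.39%, 2.55% and 4.62%. A match describes letters in the window and is not a bound site. Windows in WT-only regions were few, and a region may cover a window without being centred on it.

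**Figure D1:**
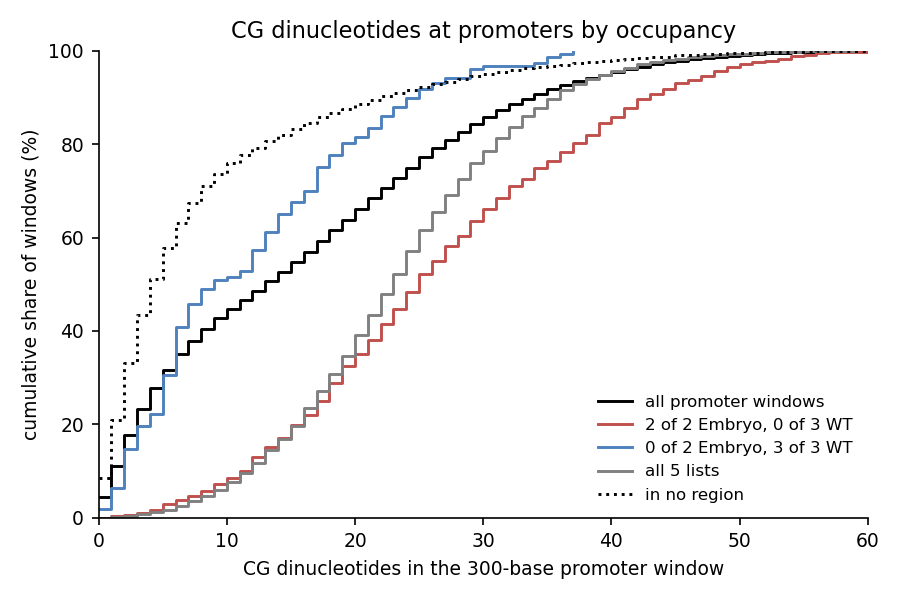
Cumulative share of promoter windows (y axis, %) by the number of CG dinucleotides in the 300-base window (x axis), 1 line for each set of windows. The line for windows in Embryo-only regions (2 of 2 Embryo, 0 of 3 WT) lies to the right with a median of 25, and that for WT-only windows lies to the left of it with a median of 9.

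Intervals at gene ends made up more of the Embryo lists. Within 1 kb of either end of a protein-coding gene lay 60.3% and 53.3% of the 14000 Embryo intervals and 36.4%, 43.1% and 39.6% of the WT intervals. No Embryo value overlapped a WT value. The means were 56.8% ± 4.90 (SD, n = 2) and 39.7% ± 3.32 (SD, n = 3), a difference of 17.1 percentage points (two-sided exact permutation p = 0.1, the smallest that the 10 splits of 5 libraries allow). Among the top 1000 intervals, where Embryo evidence was strongest, the shares were 80.7% and 76.9% in Embryo and 45.0%, 64.2% and 51.7% in WT. WT 2, the library with the highest −log10 p at rank 14000, was the WT library nearest to Embryo at every list length examined. Measured at RefSeq transcription starts, an alternative chosen after seeing the data, the difference at 14000 was 16.1 points.

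**Figure D2:**
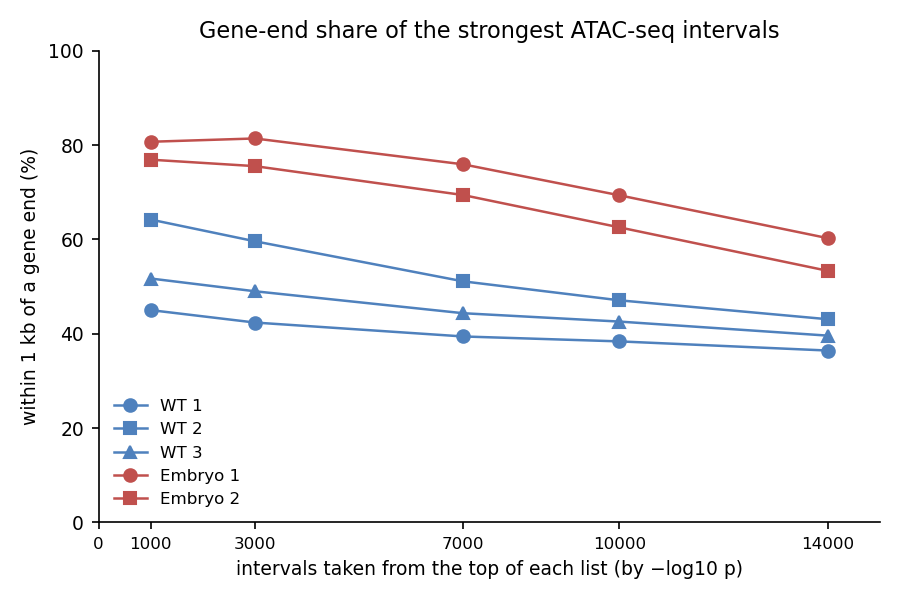
Share of intervals within 1 kb of a gene end (y axis, %) among the top 1000 to 14000 intervals of each list (x axis), 1 line per library. Both Embryo lines stay above the 3 WT lines at all 5 list lengths, and all lines end lower at 14000 than at 1000.

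The sets of regions at this list length split the same way. Of the 3148 Embryo-only regions, 1469 (46.7%) were within 1 kb of a gene end and 1679 were farther. Of the 4058 WT-only regions, 253 (6.24%) were within 1 kb and 3805 were farther. Over all 27825 regions the share was 35.5%, and among the 4241 regions open in all 5 libraries it was 78.9%. WT-only regions were thus mostly distal, with a median distance to a gene end of 30646 bp for the farther ones, against 21373 bp for the farther Embryo-only ones. The split was as wide with shorter lists (70.5% against 12.5% at gene ends with the top 7000) but not with full lists, where 48 of 899 Embryo-only (5.34%) and 3045 of 40717 WT-only regions (7.48%) were at gene ends, nor with absence judged in full lists (24 of 372, or 6.45%, against 177 of 3679, or 4.81%). Median width was 709.5 bp for Embryo-only and 1066 bp for WT-only regions, so the 2 sets also differ in how much sequence each region covers. Without Embryo 1 the Embryo-only set grew to 6055 (4255 farther) and the WT-only gene-end regions to 495, and without Embryo 2 the Embryo-only set grew to 5712 (2317 at gene ends, 3395 farther), since fewer lists had to hold or lack a region.

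**Figure D3:**
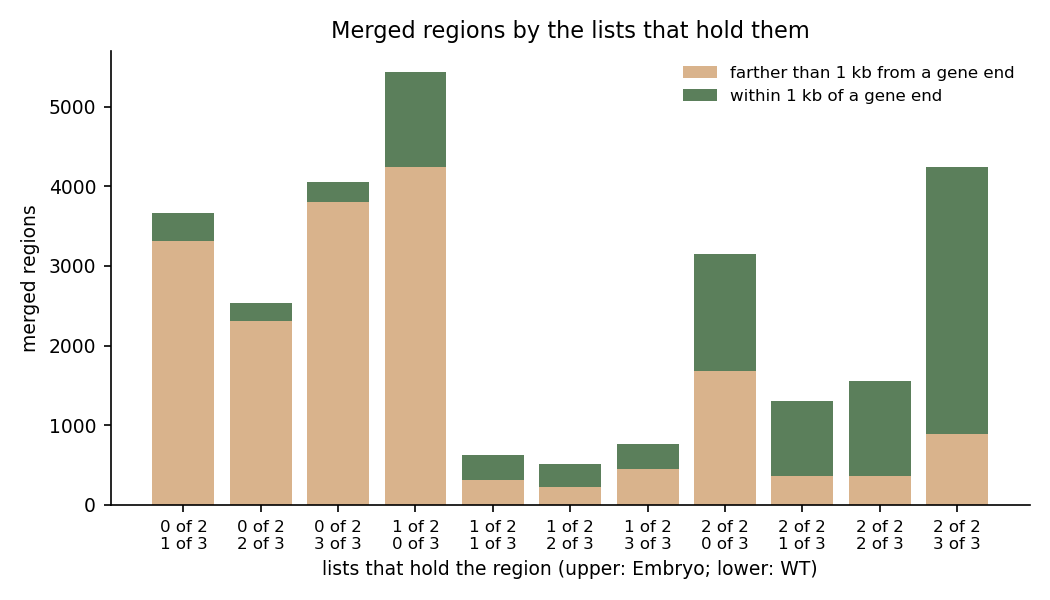
Number of merged regions (y axis) for each combination of Embryo and WT lists that hold them (x axis), with bars split into regions within 1 kb of a gene end and farther ones. The bar for 0 of 2 Embryo and 3 of 3 WT is almost all distal (3805 of 4058), whereas that for 2 of 2 Embryo and 0 of 3 WT holds 1469 gene-end regions of 3148.

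Embryo-only regions were mostly present in WT at lower rank. In the full lists, 76.1%, 84.8% and 84.7% of them were found in WT 1 to 3, and 2346 (74.5%) were in all 3. At gene ends this reached 1354 of 1469 (92.2%), while 24 were in no WT list. Among the farther ones 992 of 1679 (59.1%) were in all 3 full WT lists and 348 (20.7%) were in none. The reverse count is bounded by list length: 3679 of 4058 WT-only regions (90.7%) were in neither full Embryo list, but these lists end at ranks 24902 and 14255, before the ranks at which most Embryo-only regions appear in WT. Read down to rank 24902 only, a limit chosen after seeing the data, WT 1 to 3 held 26.0%, 35.3% and 27.3% of the Embryo-only regions, and Embryo 1 held 9.27% of the WT-only regions. At gene ends these shares were 35.3%, 52.3% and 37.2% against 30.0%, and farther away 17.9%, 20.5% and 18.7% against 7.88%.

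**Figure D4:**
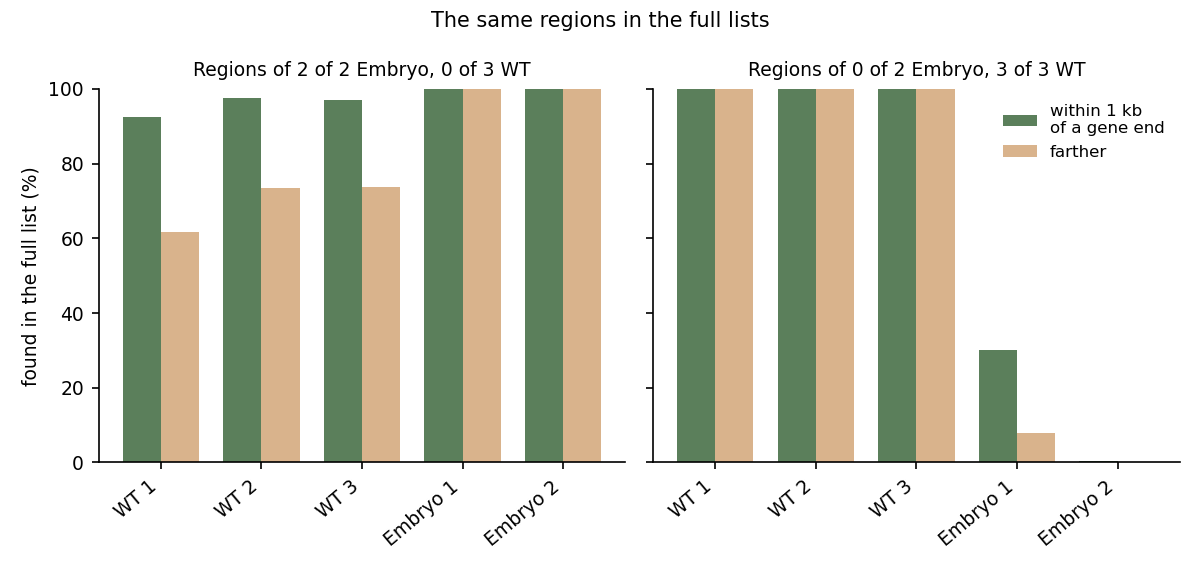
Share of Embryo-only regions (left) and WT-only regions (right) found in each full list (y axis, %; x axis, library), split by distance to a gene end. Embryo-only regions at gene ends reach 92.4% to 97.7% in WT, farther ones 61.8% to 73.8%, and WT-only regions reach at most 30.0% in Embryo, whose lists are shorter.

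The distal Embryo-only regions of highest rank are given with their place in the other lists. At chr12:59262691-59263107, intergenic and 40730 bp from Fbxo33, a ubiquitin ligase subunit gene, the region ranked 46 in Embryo 1 and 40 in Embryo 2 with a fold enrichment of 26.2 and 27.8. It was in none of the 9 other lists of the series. The region at chr12:99645150-99645677 near Efcab11 ranked 60 and 85 and was in no full WT list, but in 3 full lists of the other groups. At chr6:29747729-29748970, in the body of Smo, the signal transducer of the Hedgehog pathway, the region ranked 69 and 66 in Embryo and 30102, 32607 and 41002 in WT. The authors' fold enrichment there was 14.6 and 13.8 in Embryo and 6.96, 8.02 and 5.81 in WT. The other non-embryonic groups are SmoM2 and SmoM2-Sox9cKO. The Smo region ranked 8583, 1580 and 16750 in SmoM2 1 to 3 and 27587, 28069 and 81 in SmoM2-Sox9cKO 1 to 3. Its fold enrichment was 13.1 in SmoM2 2 and 17.8 in SmoM2-Sox9cKO 3. Fold values come from separate lists and are set side by side only as the authors gave them.

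Among gene-end Embryo-only regions, the one over the Sh3bp4 promoter (chr1:89069677-89070627) ranked 326 and 546 in Embryo and 31117, 23122 and 25122 in WT. The B3galt6 region (chr4:155992330-155993370) ranked 184 and 876 against 18288, 18929 and 17135. Adgrf2, an orphan adhesion receptor gene, had a region at chr17:42743258-42744428 that ranked 584 and 141 in Embryo and appeared in WT 3 only among WT lists, at rank 24849. That region ranked 694 in SmoM2-Sox9cKO 1 but 21181 to 47838 in the other SmoM2 and SmoM2-Sox9cKO libraries. Of the 10 strongest regions, 9 were in all 3 full WT lists, Adgrf2 being the exception. The Gm21119 and Dynlt1f regions lie in multicopy families, where reads of near-identical copies can be misplaced, and are uncertain.

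On the WT side, the Lypd3 promoter region (chr7:24636189-24637454) ranked 367, 2441 and 766 in WT and was in neither Embryo list. Mpp4 (chr1:59162290-59163934) ranked 480, 1495 and 614 and was likewise absent from Embryo. Interferon-inducible genes Ifi204 (chr1:173766390-173767656; ranks 392, 294 and 330) and Ifi202b (chr1:173982347-173983878; ranks 1290, 541 and 886) also had WT-only gene-end regions, although this family is repetitive and its assignment uncertain. Regions at Gm3776, Vmn2r129 and Olfr433 carry the same doubt. Distal regions of top rank lay near Adgre5 (chr8:83756749-83757456; ranks 38, 39 and 38), in Msmo1, a gene of sterol synthesis (chr8:64725819-64727012; ranks 89, 425 and 80), and near Ctsl (chr13:64388109-64389314; ranks 138, 497 and 150), a lysosomal protease gene. None of these was in a full Embryo list, and each was in all 6 full lists of the other non-embryonic groups.

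Regions were next counted per locus, that is, per nearest protein-coding gene within 100 kb. Limma tested 6478 loci with a mean of at least 1 region over the 5 libraries: 204 were higher in Embryo (3.15%) and 678 lower (10.5%), together 13.6% (Benjamini-Hochberg adjusted p below 0.05). Groups did not overlap at 1606 loci (24.8%), which include all 882 called. In 447 of the 882 the libraries of each group had identical numbers, which leaves almost no spread to test against. With 1 pooled spread for loci of like level, chosen after seeing the data, 302 were higher and 909 lower. Which direction had more calls turned with the filter and the list length: 1558 were higher and 1182 lower with no filter on the mean, and 5845 and 1655 with full lists, where 2102 of the higher calls had the same number in every library. The count of higher loci grew when any library was left out, to 339, 333 and 337 without WT 1, 2 and 3, and to 369 and 339 without Embryo 1 and 2 (the remaining Embryo library being assumed to vary like WT). More regions at a locus means neither stronger signal in any of them nor expression.

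The 10 loci given here for the higher direction were at 0 in every WT library, as were 24 of the 204 called higher in all. Such loci passed the filter on the mean through the Embryo libraries alone, and at Foxa2, Prdm16 and Gpc6 identical numbers within each group left almost no spread to test against. Foxa2, the forkhead factor of foregut endoderm, had 0, 0 and 0 regions in WT 1 to 3 and 4 and 4 in Embryo (adjusted p = 9.62e-05). Prdm16, a zinc finger regulator of cell fate, had the same numbers and the same adjusted p. Celsr1, a planar cell polarity cadherin, held 0 in every WT library and 4 and 3 in Embryo (adjusted p = 0.00101), and so did Pde1c, a phosphodiesterase gene. Kdm6b, an H3K27 demethylase, went from 0 in WT to 2 and 5 (adjusted p = 0.0257). Ror2, a Wnt5a receptor, went from 0 to 5 and 2 (adjusted p = 0.0223). Gpc6, a glypican, held 0 against 3 and 3 (adjusted p = 0.00292). Apba2, a neuronal adaptor gene, held 0 against 4 and 5 (adjusted p = 0.000713). Its 4 Embryo-only regions lay in a row outside the gene, 5571 to 31459 bp away, the widest at chr7:64480245-64492921. Whether they are separate elements was not tested. Speer4d (0 against 3 and 11) and BC107364 (0 against 6 and 5) were also called, but both lie among repeated gene copies and are uncertain. Of these 10, Gpc6 alone stayed called without each library in turn. Without Embryo 1 or without Embryo 2 the calls at Foxa2, Prdm16, Apba2 and BC107364 ended. Celsr1 and Pde1c lost theirs without Embryo 2, Kdm6b without any WT library or Embryo 1, Ror2 without any WT library or Embryo 2, and Speer4d without any WT library. With full lists the log2 difference at Celsr1 turned to -0.27. Ranked by fold, the call at Gpc6 ended (adjusted p = 0.0609), as did those at Speer4d, BC107364, Apba2, Prdm16 and Ror2. The Gpc6 call also ended with a replicate block (adjusted p = 0.148).

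At Foxa2 the Embryo-only regions were one over the promoter (chr2:148045390-148046676) and a pair 73715 and 93094 bp away. The promoter region ranked 9462 and 13423 in Embryo and was in all 3 full WT lists, but only at ranks 65448, 48300 and 56765. The farthest (chr2:147948921-147949783) ranked 10076 and 6479 in Embryo and was in no WT list, but in 2 full SmoM2 and 2 full SmoM2-Sox9cKO lists. At Prdm16 an intragenic region (chr4:154592206-154593114) ranked 9592 and 6806 and was in none of the 9 other lists. At Celsr1 the gene-end region (chr15:86034056-86035072) ranked 5035 and 4464 in Embryo and 49129, 38713 and 34150 in WT.

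Unnamed predicted genes aside, the 10 loci that were lower by the most had no region in either Embryo library. The same held for 206 of the 678 loci called lower in all. Such loci passed the filter on the mean through the WT libraries alone. At Mcc, Dlg2 and Trpm1 identical numbers within each group left almost no spread to test against. Serp2 held 6, 6 and 7 regions in WT (adjusted p = 0.000457) and Mcc, a gene mutated in colorectal cancers, 6, 6 and 6 (adjusted p = 6.49e-05). Trps1, a GATA-type repressor of skeletal and hair development, held 7, 5 and 5 (adjusted p = 0.00101). Tnc, the matrix protein tenascin C, held 6, 5 and 5 (adjusted p = 0.000713), and 5 of its regions were WT-only, the strongest at chr4:63969434-63970542 with ranks 2812, 6799 and 1710. Dlg2 and Trpm1 each held 5, 5 and 5, Flt1, a VEGF receptor, 4, 5 and 5, and Ofcc1 4, 4 and 6. Fgd6 and Sspn each held 5, 4 and 4. Ranked by fold, the calls at Serp2 (adjusted p = 0.0988), Flt1 (adjusted p = 0.0988) and Sspn (adjusted p = 0.0772) ended. With the top 7000 the call at Fgd6 ended (adjusted p = 0.23). None of these 10 calls was lost when a library was left out.

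**Figure D5:**
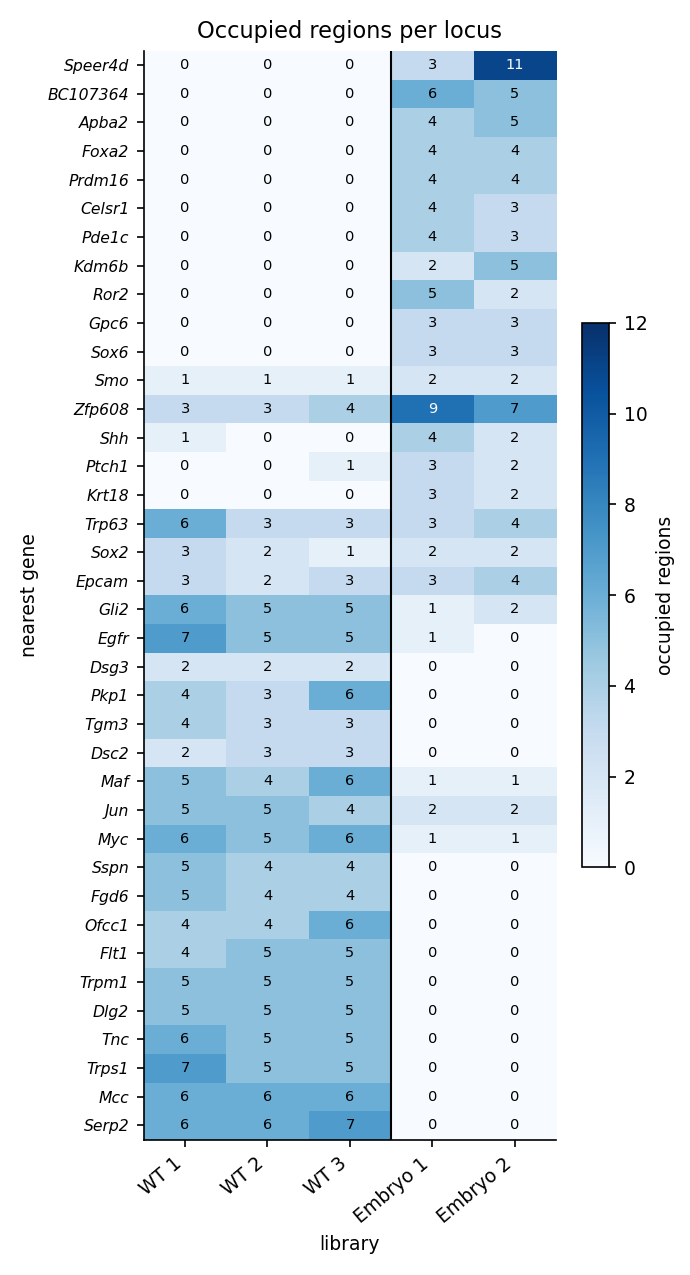
Number of open regions at named loci (rows) in each library (columns), with the number printed and shaded in each cell. The top 11 loci are at 0 in all 3 WT libraries and the bottom 10 are at 0 in both Embryo libraries.

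The loci with the most Embryo-only regions were not always called. Hrh1, the histamine H1 receptor gene, had 9 such regions, all in the 77586 bp beyond one gene end, and held 4, 1 and 6 regions in WT and 11 and 15 in Embryo (adjusted p = 0.291). The groups did not overlap, although WT 2 lay well below WT 1 and WT 3. All 9 were in the 3 full WT lists, at lower rank. Zfp608 held 3, 3 and 4 regions in WT and 9 and 7 in Embryo (log2 difference 1.13 ± 0.17 SE, adjusted p = 0.0316), a call lost without WT 1, WT 2, Embryo 1 or Embryo 2, and ranked by fold the difference was -0.28. Maml3, a Notch coactivator gene, had 6 Embryo-only and 7 WT-only regions, with totals of 12, 9 and 8 in WT and 9 and 7 in Embryo (adjusted p = 0.481).

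On the WT side Abcc4, a transporter gene, had 9 WT-only regions and totals of 14, 15 and 14 in WT and 6 and 9 in Embryo (log2 difference -0.93 ± 0.20 SE, adjusted p = 0.0687). Ppp3ca, the calcineurin catalytic subunit, had 8, with 9, 10 and 10 regions in WT and 1 and 1 in Embryo (log2 difference -2.78 ± 0.07 SE, adjusted p = 0.000448). Arhgap26, a GTPase activating protein gene, held 11, 11 and 10 against 3 and 2 (-1.93 ± 0.16 SE, adjusted p = 0.00411). Lpp, an adhesion site protein gene, held 13, 10 and 11 against 4 and 4 (-1.40 ± 0.13 SE, adjusted p = 0.00633), a call lost without either Embryo library.

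The labelled cell identity was only partly visible in these lists. Krt5 had no region in any library, and Krt14 had 1 in WT 3 alone. Trp63 held 6, 3 and 3 regions in WT and 3 and 4 in Embryo (adjusted p = 0.787), and Sox2 3, 2 and 1 against 2 and 2 (adjusted p = 0.889). Near Trp63, a region 58732 bp outside the gene at chr16:25623755-25625031 was WT-only (ranks 2422, 628 and 872), and another in the gene body at chr16:25774609-25775321 was Embryo-only (ranks 7894 and 7722) and in no full WT list. Epcam, the gate marker of WT, held 3, 2 and 3 against 3 and 4 (adjusted p = 0.481). Krt18 held 0 in all WT libraries and 3 and 2 in Embryo without passing the test (adjusted p = 0.094), and no region there was open in both Embryo libraries. Krt8, whose name the sorted reporter carries, had 1 region in Embryo 2 alone. Nkx2-1, the factor of the respiratory side of the foregut, had none in any library.

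Gene groups are described against the background of all 6478 tested loci, with 3.15% higher, 10.5% lower and a median log2 difference of -0.02. Genes at all loci held 2954 Embryo-only and 3584 WT-only regions, and of 17251 genes with a promoter window 7.26% had it in an Embryo-only and 0.81% in a WT-only region. Of the 43 foregut endoderm genes, 16 were tested. Foxa2 was higher, none was lower by limma (2 at an unadjusted p below 0.05, 1 with the pooled spread), and the median was 0.21. These loci held 16 Embryo-only and 9 WT-only regions, and 38, 31 and 32 regions in WT against 54 and 47 in Embryo. Shh, the secreted ligand of the endoderm, held 1, 0 and 0 regions in WT and 4 and 2 in Embryo (adjusted p = 0.168). Foxp1 went the other way without passing, with 8, 7 and 5 against 3 and 3 (adjusted p = 0.0687). Gata4 had 3 regions in Embryo 1 and none elsewhere. Gata6 and Barx1, a stomach and esophagus patterning factor, each had 1 and 1 in Embryo and none in WT, but at different places in the Embryo libraries. Foxa1 held 1, 1 and 1 in WT against 2 and 0. Promoter windows of Foxa2, Foxp1, Foxp4, Hhex and Isl1, 5 of the 26 genes with a window (19.2%), lay in Embryo-only regions and none in a WT-only region.

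Columnar epithelium genes had 6 tested of 33 and no locus called by limma (median 0.40; 1 higher at an unadjusted p below 0.05 and 2 with the pooled spread). Their loci nevertheless held 12 Embryo-only regions and 1 WT-only region, and 14, 16 and 15 regions in WT against 33 and 30 in Embryo. Cdh1, encoding E-cadherin, held 0, 1 and 1 against 2 and 3 (adjusted p = 0.338). Its Embryo-only gene-end region (chr8:106603015-106603792) ranked 2213 and 10372. Promoters of 3 of the 23 genes with a window lay in Embryo-only regions, against 7.26% of all genes, and none in a WT-only region. The 3 were the tight junction genes Cldn3 and Cldn7 and Ezr, which links membrane to actin. The Cldn3 region (chr5:134985503-134986498) ranked 835 and 2456 in Embryo and 53241, 31856 and 23691 in WT.

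In the Hedgehog pathway 14 of 31 genes were tested, Smo was higher, Gli2 was lower, and the median was 0.12. Among ligands, Shh had 1 Embryo-only region, 33684 bp from the gene (chr5:28500785-28501673, ranks 5813 and 11642). The receptor Ptch1, itself a target of the pathway, held 0, 0 and 1 regions against 3 and 2 (adjusted p = 0.173). Its regions at chr13:63567704-63568199 (ranks 4751 and 4150) and chr13:63627223-63627657 (ranks 9038 and 7309) were Embryo-only. Smo held 1, 1 and 1 against 2 and 2 (log2 difference 0.72 ± 0.03 SE, adjusted p = 0.000713), a step of 1 region that did not pass with the pooled spread (adjusted p = 0.293). One of its Embryo-only regions covered the promoter (chr6:29735370-29736307, ranks 6983 and 6868, against 25176, 20747 and 22076 in WT). A WT-only region lay 5091 bp outside the gene (chr6:29729705-29730406, ranks 1742, 6613 and 930). Of the transcription factors, Gli2 held 6, 5 and 5 against 1 and 2 (log2 difference -1.60 ± 0.29 SE, adjusted p = 0.0461), a call lost without any 1 of the WT libraries. Gli1 had 1 and 1 in Embryo and none in WT, from an Embryo-only region at chr10:127338950-127339515 (ranks 8817 and 3878, against 14573, 22285 and 18039 in WT). Promoters of 7 of the 20 genes with a window (35.0%) were in Embryo-only regions, namely Foxc1, Gli3, Kif7, Mycn, Scube1, Smo and Sufu, and none was in a WT-only region.

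Of 55 Wnt genes 20 were tested, with a median of -0.02. Ctnnb1, encoding beta-catenin, was higher with 1, 1 and 1 against 2 and 3 (adjusted p = 0.0482), a call lost without any 1 of the WT libraries and with the pooled spread (adjusted p = 0.0623), and with the top 7000 the log2 difference was -0.48. Lef1, a nuclear effector, was lower with 3, 4 and 3 against 1 and 1 (log2 difference -1.36 ± 0.15 SE, adjusted p = 0.0121), a call lost without either Embryo library. The receptor gene Fzd1 was lower with 2, 2 and 2 against 1 and 1 (adjusted p = 0.00101), which the pooled spread did not call (adjusted p = 0.184) and whose log2 difference was 0.38 with full lists. Rnf43, a negative regulator of Wnt receptors, held 3, 0 and 1 against 5 and 4 (adjusted p = 0.455).

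BMP and TGF-beta genes had 25 tested of 41, none higher by limma (4 at an unadjusted p below 0.05, 4 with the pooled spread) and 4 lower, with a median of -0.26. The receptors Acvr1 (3, 3 and 2 against 1 and 1, adjusted p = 0.0463) and Tgfbr2 (3, 3 and 4 against 1 and 1, adjusted p = 0.0133), the effector Smad5 (2, 2 and 2 against 1 and 1, adjusted p = 0.00101) and Ltbp1, which tethers latent TGF-beta to matrix (9, 9 and 8 against 3 and 2, adjusted p = 0.00803), were the called ones. Acvr1 was not called without WT 1, WT 2 or either Embryo library, and Tgfbr2 not without either Embryo library. Ranked by fold, the log2 difference at Acvr1 was 0.32. The pooled spread did not call Smad5 (adjusted p = 0.184), and with full lists its log2 difference was 0.48. Promoters nevertheless went the other way: 10 of 27 genes with a window (37.0%), among them Bmpr1a, Id3, Id4, Smad3, Smad5 and Tgfbr2, had it in an Embryo-only region, against Ltbp1 alone in a WT-only region. At Tgfbr2 and Smad5 the promoter was thus Embryo-only while the total of regions was lower in Embryo. Within 20 kb the log2 difference at each was -0.1 and was not called (adjusted p = 0.0829). Bmpr1a's promoter region (chr14:34502433-34503100) ranked 7157 and 6106 in Embryo and was in WT 2 only, at rank 45673.

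Notch genes had 9 tested of 26, with a median of -0.30. The ligand Dll1 was lower with 1, 2 and 3 against 0 and 0 (adjusted p = 0.0463), a call lost without WT 2 or either Embryo library, and the coactivator Maml1 with 2, 2 and 2 against 1 and 1 (adjusted p = 0.00101; 0.184 with the pooled spread; log2 difference 1.58 with full lists). Dll1 passed the filter on the mean through WT alone. Hes1, a Notch target, had both kinds of region: 3 WT-only, 17312 to 40068 bp away, and 3 Embryo-only, at most 2316 bp from the gene. The WT-only one at chr16:30024362-30025289 ranked 1244, 1422 and 2360, and the Embryo-only one over the gene end at chr16:30065065-30065406 ranked 7967 and 4462.

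Among 19 Sox genes 7 were tested, with a median of 0.72. Sox6 was higher, at 0 in every WT library and 3 and 3 in Embryo (adjusted p = 0.00292). The locus passed the filter on the mean through Embryo alone, and only 1 region there was open in both Embryo libraries. The call ended at 20 kb (adjusted p = 0.251) and ranked by fold (adjusted p = 0.575), and with full lists the log2 difference was -0.68. Sox5 held 2, 1 and 2 against 6 and 3 (adjusted p = 0.218), and Sox12 0, 1 and 0 against 2 and 2 (adjusted p = 0.207). The promoters of Sox4, Sox8 and Sox11, 3 of 13 genes with a window (23.1%), were in Embryo-only regions. That of Sox11, a progenitor factor, ranked 2993 and 3049 in Embryo (chr12:27342314-27343147), was absent from WT 1 and ranked 50471 and 62842 in WT 2 and WT 3. Sox9 held 3, 1 and 2 in WT and 1 and 1 in Embryo (adjusted p = 0.481).

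AP-1 genes, whose proteins bind the letters searched above, had 12 tested of 19, with a median of 0.03. Jun was lower with 5, 5 and 4 against 2 and 2 (log2 difference -1.06 ± 0.13 SE, adjusted p = 0.0176), a call lost without WT 1, WT 2 or either Embryo library. Maf was lower with 5, 4 and 6 against 1 and 1 (-1.88 ± 0.20 SE, adjusted p = 0.0102), lost without either Embryo library. Fosl2 was higher with 1, 1 and 1 against 2 and 2 (adjusted p = 0.000713; 0.293 with the pooled spread; log2 difference -0.03 with full lists). Fosb held 1, 1 and 0 against 5 and 4 without passing (adjusted p = 0.13). Of its 4 Embryo-only regions, the one over the promoter was at chr7:19310035-19310624 (ranks 6885 and 4730).

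Of 30 basal keratinocyte genes 17 were tested, none was higher by limma (0 at an unadjusted p below 0.05, 0 with the pooled spread) and 3 were lower, against 10.5% of all tested loci, and the median was -1.09. Their loci held 9 Embryo-only and 25 WT-only regions. Dsg3, a desmosomal cadherin, held 2, 2 and 2 regions in WT and none in Embryo (adjusted p = 2.29e-05, or 0.00632 with the pooled spread). Identical numbers within each group left almost no spread to test against there. Tfap2c, an epidermal regulator, held 1, 2 and 2 (adjusted p = 0.0223), and the neurotrophin receptor gene Ngfr 2, 1 and 2 (adjusted p = 0.0233), both with none in Embryo. Dsg3, Tfap2c and Ngfr thus passed the filter on the mean through WT alone. The calls at Tfap2c and Ngfr were lost without either Embryo library. Egfr held 7, 5 and 5 against 1 and 0 (log2 difference -2.83 ± 0.54 SE) and missed the threshold (adjusted p = 0.0543), as did the laminin gene Lama3 with 3, 4 and 4 against 1 and 0 (adjusted p = 0.0883). Of 17 genes with a window, the promoters of Fgfr3 and Itga3 (11.8%) were Embryo-only and that of Lamb3 (5.88%) WT-only.

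Squamous differentiation genes had 16 tested of 46, none higher by limma (1 at an unadjusted p below 0.05, 1 with the pooled spread) and 5 lower, with a median of -0.46. The transglutaminase gene Tgm3 held 4, 3 and 3 regions in WT (adjusted p = 0.00101), the desmosomal plaque gene Pkp1 4, 3 and 6 (adjusted p = 0.00673) and the desmosomal cadherin gene Dsc2 2, 3 and 3 (adjusted p = 0.00242), each with none in Embryo. Tgm3, Pkp1 and Dsc2 thus passed the filter on the mean through WT alone. At Tgm3 all 3 WT-only regions, such as chr2:129954285-129955707 (ranks 3655, 2656 and 4467), were in no full Embryo list. Scel, a cornified envelope gene, held 4, 3 and 4 against 1 and 1 (adjusted p = 0.0117), and Elf3, an epithelial ETS factor, 2, 3 and 3 against 1 and 1 (adjusted p = 0.0447). Pkp1 and Scel were not called without either Embryo library, and Elf3 not without WT 2, WT 3 or either Embryo library, with a log2 difference of 0.44 with full lists. Krt78 held 0, 0 and 1 against 2 and 3 (adjusted p = 0.177). Of 29 genes with a window, the promoters of Klf4 and Dsp (6.90%) were Embryo-only and that of Sprr1a (3.45%) was WT-only. The Klf4 promoter region (chr4:55532339-55533081) ranked 3527 and 3709 in Embryo and 46727, 23984 and 23427 in WT. That of Sprr1a, a cornified envelope precursor (chr3:92485625-92486696), ranked 6362, 6437 and 6715 in WT.

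Matrix and adhesion genes had 13 tested of 37, with Tnc and Itgb6 lower and none higher by limma (0 at an unadjusted p below 0.05, 1 with the pooled spread; median -0.34). Itgb6, an epithelial integrin, held 6, 5 and 6 against 2 and 1 (log2 difference -1.68 ± 0.26 SE, adjusted p = 0.0313), lost without any 1 of the WT libraries. Of 38 cell cycle genes 26 were tested. The promoters of 16 of the 30 with a window (53.3%) were in regions open in all 5 libraries, against 19.98% of all genes, and 1 locus was called. This was Myc, lower with 6, 5 and 6 against 1 and 1 (-2.05 ± 0.13 SE, adjusted p = 0.00164). All 3 of its WT-only regions lay 53237 to 70997 bp away, whereas its gene-end region (chr15:61984899-61985734) was Embryo-only, with ranks 5978 and 5078, and within 20 kb the log2 difference was 0.18. Ribosomal and housekeeping genes had 12 tested of 33 with a median of -0.02, and Eef2 was higher (1, 1 and 1 against 2 and 2, adjusted p = 0.000713; 0.293 with the pooled spread). Yet 9 of 25 promoters (36.0%) were Embryo-only, including Gapdh, Pgk1, Ppia, Rplp0 and Rps3, a share like that of the Hedgehog and BMP genes. The Rps3 promoter region ranked 3295 and 1341 in Embryo and 26638, 18804 and 35991 in WT.

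Markers of other cell types had a region in at least 1 library at 12 of 16 neural and neural crest, 11 of 20 endothelial, 10 of 18 fibroblast, 7 of 16 muscle, 3 of 16 immune, 2 of 11 Langerhans and dendritic and 2 of 9 erythroid genes. Of all 21631 protein-coding genes, 13040 had one, so these counts alone do not mark a cell type. Of 20 endothelial genes 9, Cdh5 and Tek among them, had none in any library. Of the 2 tested, Flt1 was lower, and the list held 10, 10 and 11 regions in WT and 8 and 8 in Embryo. Pecam1 held 2, 1 and 1 and Emcn 1, 1 and 1 in WT, with none in Embryo. Of 16 immune genes 13, Ptprc and Cd3e included, had none, and the list held 2, 1 and 2 regions against 1 and 2. The 11 Langerhans and dendritic genes held none in WT and 4 and 1 in Embryo, with Cd207 at none. Fibroblast genes (18) held 4, 6 and 6 against 7 and 7, with none at Col1a2, Col3a1 or Twist1, and muscle genes (16) 4, 3 and 5 against 6 and 3, with none at Myh11 or Des. The 16 neural and neural crest genes held 2, 6 and 4 against 12 and 5, and the 9 erythroid genes 1, 1 and 1 against 1 and 2. Of the 9 loci tested in these lists Flt1 alone was called. The part of such cells in the results was not tested.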

How the data were processed

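Reads were, per the submitters' processing notes, trimmed (Trimmomatic), aligned to GRCm38/mm10 (Bowtie2), cleared of duplicates (Picard) and peaks called (MACS2), with deepTools also named. Versions, settings and read numbers: not given in the sources used here. Of the 10 columns, the authors' score (column 5), fold enrichment ratio (column 7), −log10 p-value (column 8), −log10 q-value (column 9) and summit offset (column 10) were deposited per library. Intervals repeated for several summits were collapsed, chromosomes 1 to 19 and X kept, and the top 14000 by column 8 merged (1 bp overlap). Coordinates are 1-based.

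Distances used 21631 protein-coding genes of the RefSeq GRCm38.p6 table, which has no strand, hence gene ends. Promoter sequences (21020 windows, 17251 genes) are RefSeq's of the same build. Loci were tested with limma 3.58.1 (R 4.3.3; trend on, robust off) on log2((regions + 0.5) / (total + 1) × 100000), Benjamini-Hochberg at 0.05. Adjusted p-values in the text are limma's. No log2 difference is given where a group held none. The steps were tested on simulated data.

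Named genes are the largest called differences per direction (unnamed predicted genes left out), the loci richest in each set, the top members of each list, the top regions by rank, and fixed markers. Other called list members and single regions were chosen after their values were seen. Members and lists were chosen with earlier results of these data known. Alternatives are in the closing section.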

Additional observations from a re-analysis of the deposited data

How the results depend on the processing

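Limits. Embryo lists are short and weakly supported at their ends, depth is unknown, and 2 against 3 libraries cannot go below an exact p of 0.1. With the top 10000 intervals the farther sets numbered 1003 Embryo-only and 2514 WT-only regions. With the top 7000 there were 1907 Embryo-only (563 farther) and 1755 WT-only (1535 farther). Full lists gave 899 Embryo-only (48 at gene ends, 851 farther) and 40717 WT-only (3045 and 37672). Absence judged in full lists left 372 Embryo-only (24 and 348). Ranking by fold gave 2523 gene-end Embryo-only regions. A 5 kb limit gave 618 WT-only gene-end regions and transcription starts, chosen after seeing the data, 156. Leaving out 1 library gave 3471 to 6055 Embryo-only (1670 to 2317 and 1787 to 4255) and 4404 to 5061 WT-only regions (312 to 495 and 3982 to 4741). The gene-end difference kept its sign throughout: 15.9 to 28.1 points over list lengths, ranking and distances, and 13.6 to 20.6 without 1 library.

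Loci called higher and lower numbered 47 and 480 with a mean of at least 2 regions (1303 tested), 1558 and 1182 with no filter, 594 and 632 for farther regions only, 40 and 1706 with the top 7000, and 5845 and 1655 with full lists. In the last 3 settings 347 higher, 1257 lower and 2102 higher calls had the same number in every library, so scaling alone made them. Leaving out 1 library gave 333 to 369 higher and 607 to 660 lower. Replicate numbers did not pair the libraries (correlations of deviations from -0.012 to 0.012), and with a replicate block 7 and 131 loci were called.

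Of 1942 alternatives at 108 named loci, 1555 kept the side of the threshold, 205 lost a call and 163 gained one. Sign changes where neither fit was called count among the 1555, as at Maml2 (log2 difference -1.23 to 0.19 without 1 library). Another 19 changed sign with a call in the main or the alternative fit (cause not tested). With full lists these were Celsr1 (-0.27), Fzd6 (1.13), Maml1 (1.58), Sox6 (-0.68), Klf1 (1.94), Etv5 (0.30), Elf3 (0.44), Fzd1 (0.38), Smad5 (0.48) and Fosl2 (-0.03). By fold they were Zfp608 (-0.28) and Acvr1 (0.32), and with the top 7000 Ctnnb1 (-0.48), Sox21 (-0.053) and Etv5 (0.44). At 20 kb they were Myc (0.18) and Erg (0.64), for farther regions Col6a3 (0.52), and without Embryo replicate 2 Foxa1 (0.70), all as log2 differences. Without 1 WT library Foxa1 was as low as -0.45, and without Embryo replicate 1 it fell below the filter on the mean.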

Other observations

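Genes of neighbouring foregut organs were also examined. Of 13 lung and trachea genes 5 were tested, and Etv5, a target of FGF signalling, was lower with 3, 3 and 3 regions in WT and 2 and 2 in Embryo (adjusted p = 0.0353), a call lost without any 1 of the WT libraries and with the pooled spread (adjusted p = 0.424), with a log2 difference of 0.44 with the top 7000. Its relative Etv4 held 0 in every WT library and 2 and 3 in Embryo (adjusted p = 0.096), and Fgfr2 held 5, 3 and 3 against 2 and 1 (adjusted p = 0.188). Among 16 liver, stomach and intestine genes 2 were tested and none was called by limma (none at an unadjusted p below 0.05, and none with the pooled spread). The list held 1, 4 and 5 regions in WT and 8 and 7 in Embryo. Pdx1, a pancreas and duodenum factor, had 1 and 1, and Muc6, a gastric mucin gene, 2 and 1, with none in WT. Cdx2, an intestinal factor, held 0, 0 and 1 against 1 and 2.

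The X chromosome held 2.04% and 2.32% of the Embryo intervals and 0.957%, 1.14% and 0.786% of the WT intervals, and 84 Embryo-only against 8 WT-only regions. The labels do not state the animals' sex.

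In the other groups of the series, sets were chosen again with 1 WT library left out. The left-out WT library held 9.31% to 17.0% of the Embryo-only sets, SmoM2 libraries 17.4% to 33.8% and SmoM2-Sox9cKO libraries 19.2% to 29.2%. Of the WT-only sets it held 80.2% to 85.1%, SmoM2 55.8% to 59.7% and SmoM2-Sox9cKO 57.6% to 67.2%. These groups were sorted with another EpCAM gate than WT, and no test was made.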
